A study of Mus musculus with 38 samples.

Results

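The interstitial macrophages called IM2 were compared with the alveolar macrophages (AM) of the same mouse strain. The comparison used 6 of the 12 RNA-seq libraries of the study, 3 of each population (replicates A, B and C), chosen by the population name in the labels and not by any measured value. The study sorted 4 macrophage populations from resting lung to set them against each other. The other 6 libraries, 3 each of the interstitial populations IM1 and IM3, entered only where a difference from AM was asked to be found in IM2 alone.

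All cells came from naive C57Bl/6 mice of 8 to 10 weeks, whose lungs were perfused, minced and digested for 30 minutes with Liberase at 0.5 mg/ml. IM2 cells were enriched for MerTK and gated as live CD64+ single cells without CD24, CD43, Siglec F, Ly6G, NK1.1, CD3 or B220. Among the CD11b+ cells of that gate, IM2 was the MHC class II high, CD206 high population, IM1 was MHC class II low and CD206 high, and IM3 was MHC class II high and CD206 low. AM were sorted with another panel, as CD11c+ Siglec F+ cells without CD11b, CD103, Gr1 or the lymphocyte markers. RNA came from about 50000 cells, had integrity numbers of 9.2 to 10.0, and entered SMART-Seq v4 amplification at 2 ng before sequencing on Ion Proton chips. Panel and population cannot be told apart here, because each population was sorted with 1 panel. Nothing in the labels says whether the replicates were separate mice or pools, so p-values measure only the spread between these libraries, which may be technical.

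Alveolar macrophages live on the air side of the alveolus, where they take up inhaled particles and break down surfactant lipid, and they depend on GM-CSF and the nuclear receptor PPAR-gamma. Interstitial macrophages lie in the tissue around airways, vessels and nerves. CD206 is the mannose receptor, encoded by Mrc1, and MHC class II molecules present peptides to CD4 T cells.

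The IM2 libraries held 12894548 to 15652508 reads assigned to genes and the AM libraries 14439177 to 15758326. IM2 libraries detected 18460 to 18908 genes and AM libraries 16050 to 16475. Reads that mapped outside genes made up 8.67% to 12.39% of mapped reads in IM2 and 3.89% to 6.31% in AM, and their part in the results was not tested. Levels are CPM, read counts scaled to a common library size with TMM factors. A count of 0 in a library allowed a level of up to 0.233 CPM, taken as 3 counts, and such limits and the count intervals below cover counting error only. In bulk RNA, fewer cells that express a gene and less RNA per cell cannot be told apart.

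The populations differed in most of the genes that could be tested. Of 13250 genes tested with edgeR's quasi-likelihood test, 8746 (66%) had a Benjamini-Hochberg adjusted p under 0.05. That is the meaning of "called" below, and all adjusted p-values of the pair come from this fit. IM2 was higher in 4682 of them (35.3% of genes tested) and lower in 4064 (30.7%). The counts given for gene lists below are to be read beside these shares, and several of them lie near these shares. The lists of complement genes, Fc receptors, scavenger receptors, integrins and alternative activation genes also count genes of the sort gates. Differences of at least 2-fold were called for 2991 genes higher and 1925 lower. The 3 IM2 libraries did not overlap the 3 AM libraries in 9341 genes (70.5%). The median log2 fold change, always IM2 minus AM, was 0.06. Values after "higher by" or "lower at" are log2 fold changes with their SE. Very large differences were mostly on the IM2 side, with 1179 genes called higher by 16-fold or more against 318 lower. All 3 AM libraries were at 0 counts for 520 of the genes called higher, while all 3 IM2 libraries were at 0 for 52 of those called lower. For such genes the fitted fold change, used in the 16-fold counts, can exceed the bound that the counts give. Egr3, with 40 counts in IM2 and 0 in AM, was fitted at 6.74, though its bound was 13-fold. The 16-fold sets of upstream sequences below carry the same limit.

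**Figure D1:**
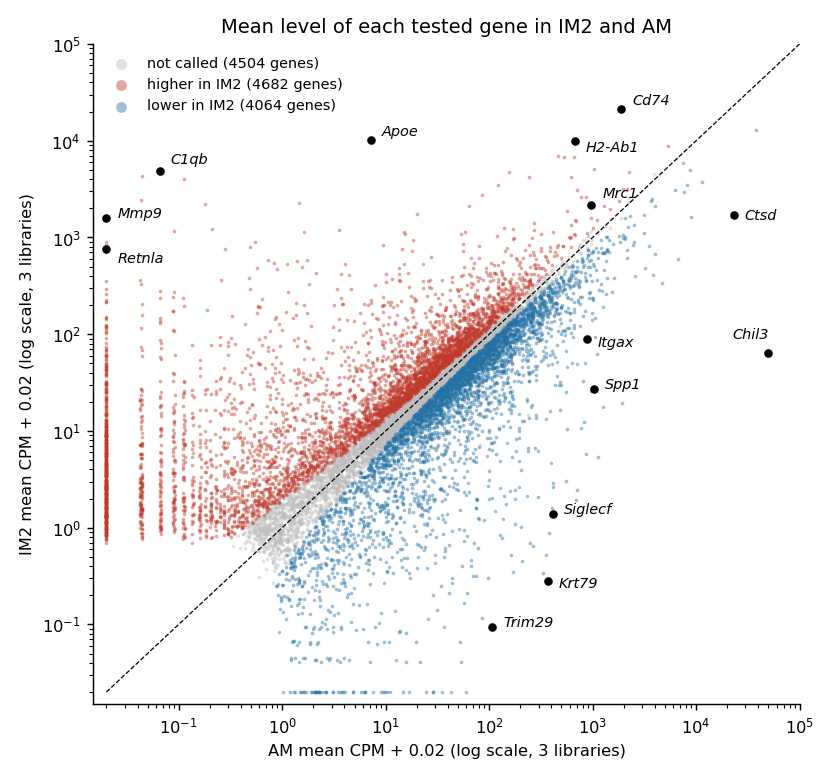
Mean level of each of 13250 tested genes in AM (x axis) and IM2 (y axis), in CPM plus 0.02 on log scales, over 3 libraries each; red marks the 4682 genes called higher in IM2, blue the 4064 called lower, grey the rest. The column of red points at the left edge holds genes with no count in AM, and Chil3 stands alone at the right.

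The genes of the sort gates followed the gates in most cases. Of 16 listed, 14 could be tested, 7 were called higher in IM2 and 6 lower, with a median log2 fold change of 0.50. Ly6g and Cd3e were too low to test. H2-Ab1 (chr17:34263209-34269418, mm10), the beta chain of the MHC class II molecule I-A, stood at 9284, 9863 and 10570 CPM in IM2 and at 470.5, 755.3 and 782.9 in AM. Every IM2 library was far above every AM library, and the log2 fold change was 3.89 ± 0.18 (SE, edgeR adjusted p = 1.42e-11). H2-Eb1 and H2-Aa, also class II chains, were higher by 4.93 ± 0.17 and 3.93 ± 0.18. Mrc1 (chr2:14229392-14332057) gave 1989, 2152 and 2339 CPM in IM2 against 1001, 938.9 and 984.8 in AM. The groups did not overlap, yet the AM level was high and the log2 fold change was only 1.15 ± 0.11 (edgeR adjusted p = 8.19e-08).

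Itgam, which encodes CD11b and was gated in opposite ways, was at 714.1, 953.8 and 847.3 CPM in IM2 and 9.842, 7.019 and 11.61 in AM. Fcgr1, the CD64 gene, was higher in IM2 by 1.06 ± 0.10. Siglecf (chr7:43351341-43359531), the sialic acid lectin that defines AM, was at 1.263, 0.8251 and 2.027 CPM in IM2 and 436.2, 413.1 and 400 in AM. It was lower in every IM2 library, at -8.21 ± 0.20 on the log2 scale (edgeR adjusted p = 3.94e-15). Itgax (CD11c) was lower at -3.32 ± 0.15 and Cd24a at -6.81 ± 0.20. Mertk, the efferocytosis receptor used to enrich interstitial cells, was lower in IM2 with 195.7, 224.4 and 166.4 CPM against 414.9, 370.4 and 404.7, and Ptprc (CD45) was lower at -0.87 ± 0.11. Klrb1c, an NK receptor gene behind the excluded NK1.1, was called higher but averaged only 1.74 CPM in IM2. Itgae (CD103) was near 1 CPM in either population and was not called (log2 fold change -0.06 ± 0.45).

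**Figure D2:**
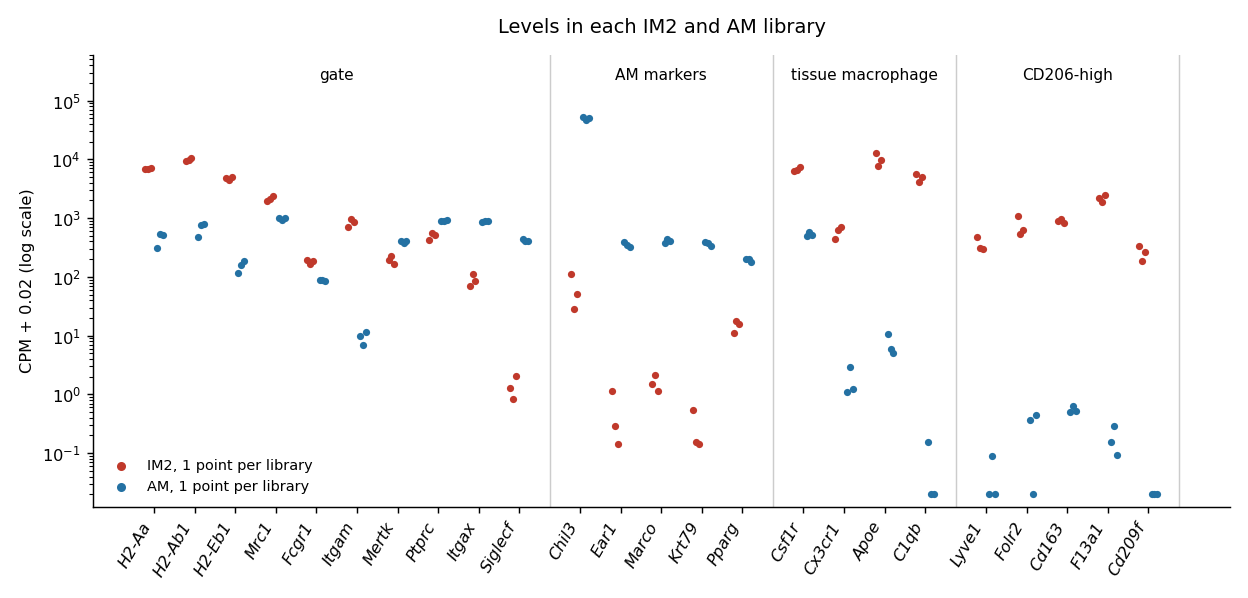
Level of 24 genes in each of the 6 libraries, in CPM plus 0.02 on a log scale, with 1 red point per IM2 library and 1 blue point per AM library. Red and blue do not overlap for any gene shown, and the Fcgr1 and Mrc1 groups lie closest together of the gate genes that were higher in IM2.

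Alveolar macrophage markers were lower in IM2 throughout: all 24 were called, each by at least 2-fold, with a median log2 fold change of -7.56 against 0.06 over all genes. As with the other lists, its members were chosen with earlier results of these data known, so the count is no test of the AM label. Chil3 (chr3:106147554-106167564), a chitinase-like lectin secreted by AM, was the most abundant gene of each AM library, at 53360, 46710 and 49950 CPM. In IM2 it was at 111.5, 28.26 and 51.16 CPM, with replicate A highest, and the log2 fold change was -9.62 ± 0.70 (edgeR adjusted p = 7.27e-05). Krt79 (chr15:101929332-101940324), a keratin, was at 0.5201, 0.1375 and 0.1228 CPM in IM2 against 392.9, 371.4 and 340.1 in AM, again highest in replicate A. Marco, a scavenger receptor for inhaled particles, was lower at -8.01 ± 0.18, and Ear1, an eosinophil-type ribonuclease, at -9.53 ± 0.30. Fabp1, a fatty acid carrier, was lower at -7.17 ± 0.19.

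IM2 replicate A held the highest IM2 level of 19 of these 24 genes. The median IM2 level was 0.703% of the AM mean in replicate A, 0.446% in replicate B and 0.429% in replicate C. With IM2 replicate A left out, 8883 of 13598 genes tested were called in place of 8746 of 13250, and 485 of the 8746 calls were lost.

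The largest negative differences among genes of at least 50 CPM included genes of no fixed list. Lipf, a gastric lipase gene, was at 0 counts in all IM2 libraries and at 54.13, 61.6 and 61.78 CPM in AM, which is at least 873-fold higher in AM. Slc6a4, the serotonin transporter, was at 0.1486, 0.1375 and 0 CPM in IM2 against 89.33, 74.41 and 94.37. Ly75 (CD205, an endocytic lectin of dendritic cells) was lower at -9.89 ± 0.31, Slpi (an antiprotease) at -9.04 ± 0.21 and Cpne5 (a calcium-binding copine) at -10.74 ± 0.24.

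Genes of tissue macrophage identity were higher in IM2 in all 18 cases, with a median log2 fold change of 9.37. Fcrls (chr3:87250758-87263738), an Fc receptor-like scavenger protein, was at 832.9, 779.3 and 1068 CPM in IM2 and at 0 counts in all AM libraries, at least 13000-fold higher. Ms4a4a (chr19:11375523-11392790), a tetraspan membrane protein, was at 492.8, 314.7 and 264.8 CPM and also had no AM count, at least 5040-fold higher. Tmem176a and Tmem176b, a neighbouring pair of membrane protein genes on chromosome 6, averaged 826 and 3980 CPM in IM2. Their AM libraries held no count of Tmem176a and 4 counts of Tmem176b in all. Cx3cr1, the fractalkine receptor, was at 444, 624.5 and 698 CPM against 1.094, 2.862 and 1.226. Apoe, the lipid carrier, was at 12910, 7782 and 9811 CPM against 10.8, 5.86 and 4.974, a log2 fold change of 10.46 ± 0.36 (edgeR adjusted p = 6.31e-10). Csf1r, the CSF-1 receptor, was higher by 3.68 ± 0.13. The smallest difference of the list was Tgfbi, a secreted matrix protein, at 0.46.

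The CD206-high perivascular macrophage genes were likewise all called higher, 18 of 18, with a median of 11.13, or 10.77 with genes lacking AM counts set to their lower bound. Cd209f (chr8:4102787-4105835), a lectin of the DC-SIGN family, was at 338.4, 188.4 and 261 CPM and at 0 counts in AM, at least 3750-fold higher. F13a1 (chr13:36867178-37050244), which encodes coagulation factor XIII A, was at 2234, 1869 and 2518 CPM against 0.1367, 0.2726 and 0.07209. Lyve1, the hyaluronan receptor, averaged 362 CPM against 0.0227, and Folr2, a folate receptor, 751 against 0.258. Cd163, the haemoglobin-haptoglobin receptor, was at 909.7, 950.9 and 839.3 CPM against 0.4784, 0.6133 and 0.5047. Gas6, the bridging ligand of TAM receptors, was higher by 12.62 ± 0.30 and Stab1, a scavenger receptor, by 10.61 ± 0.23. F13a1 and Ccr2 also stand on the list of 12 monocyte markers, whose summed level was 2655 to 3195 CPM in IM2 and 191 to 235 in AM. These 2 genes gave most of the sum in IM2, while in AM they averaged only 0.16 and 13.47 CPM. Of the 8 monocyte markers tested 4 were called higher and 4 lower, among the latter Treml4 at -6.25 ± 0.28 and Cd300e at -5.49 ± 0.34. Of the other monocyte genes, Ly6c2 had 14, 6 and 2 counts in the IM2 libraries, and the part of monocytes in these results was not tested. Markers of platelets, such as Pf4, which is also on the identity list, summed to 341 to 709 CPM in IM2 and 0.48 to 1.64 in AM, with Gp1bb and Gp6 among the markers at 0 in both. The 2 platelet markers that could be tested, Pf4 and Ppbp, were called higher, with Ppbp at 5.51 CPM in IM2 against 0 in AM. The 10 B cell markers summed to 776 to 1002 CPM in IM2 and 0.65 to 1.85 in AM, with Pax5 at 0 in both and Ighm giving most of the IM2 sum. All 3 B cell markers that could be tested were called higher, and Cd79b averaged 47.08 CPM in IM2 against 0 in AM. Their part was not tested either.

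Complement genes moved mostly one way: 16 of the 21 tested were called higher and 2 lower, with a median log2 fold change of 5.97. The C1q chains, which recognise immune complexes and dying cells, are encoded side by side on chromosome 4. C1qb (chr4:136880129-136886187) stood at 5549, 4145 and 4948 CPM in IM2 and at 2 counts over all AM libraries, a ratio of 105000 (95% interval of the counts 29100 to 868000). C1qa was at 2836, 2067 and 2438 CPM against 1 count, and C1qc at 5039, 3586 and 4330 CPM against 1 count. Replicate A was the highest and replicate B the lowest of the IM2 libraries for all 3 chains. C4b, a classical component, was higher by 6.15 ± 0.15. It has a near-identical neighbour, and reads mapping to both were not counted, so its level is uncertain. Cd55, a membrane regulator, had no AM count and was at least 881-fold higher. C3 was not called, at 212.3, 252.2 and 265 CPM against 228, 319.5 and 290.9. Itgax, a chain of complement receptor 4, and C1ra, a C1 protease, were lower.

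The sequence upstream of the start was taken from RefSeq (GRCm38.p6) for the 24 genes at the extremes of the comparison and Siglecf. Of these 25 genes 21 had an entry, and 6 had 150 bases before the start that touched no annotated gene. The 4 that held a searched motif are shown 5′ to 3′ on the gene's strand, with matches in capitals, as reference for genes that were at the ends of the range.
C1qb, higher in IM2, chr4:136886201-136886350, minus strand: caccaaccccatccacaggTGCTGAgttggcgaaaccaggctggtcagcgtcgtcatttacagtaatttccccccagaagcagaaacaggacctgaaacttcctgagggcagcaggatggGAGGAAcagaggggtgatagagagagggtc
Ms4a4a, higher in IM2, chr19:11375338-11375487, plus strand: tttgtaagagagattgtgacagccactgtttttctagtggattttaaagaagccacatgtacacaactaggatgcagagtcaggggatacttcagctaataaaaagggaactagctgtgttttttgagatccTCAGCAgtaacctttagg
Chil3, lower in IM2, chr3:106167565-106167714, minus strand: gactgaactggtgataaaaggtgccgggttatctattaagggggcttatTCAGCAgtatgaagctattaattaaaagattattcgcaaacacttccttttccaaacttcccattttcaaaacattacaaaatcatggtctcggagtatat
Siglecf, lower in IM2, chr7:43351191-43351340, plus strand: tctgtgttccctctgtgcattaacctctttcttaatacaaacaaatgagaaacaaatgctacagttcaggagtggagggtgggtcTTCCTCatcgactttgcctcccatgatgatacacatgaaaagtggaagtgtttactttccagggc
The motifs searched on both strands were GAGGAA, a core bound by the macrophage factor encoded by Spi1, TGCTGA, a core of MAF sites, TGANTCA, the AP-1 site, and AGGTCA, the nuclear receptor core; TGCTGA and TGANTCA can overlap. GAGGAA was in 14.5% of all 32851 RefSeq windows of this length, in 13.8% of the 12488 windows of genes tested, in 17.1% of windows of genes called higher by 16-fold or more and in 16.4% of those called lower by as much. TGCTGA was in 10.1% of all windows, 7.51% of those of genes tested, 10.1% of the higher set and 11.6% of the lower set. In the same order the AP-1 site was in 4.24%, 2.92%, 4.91% and 8.19%, and AGGTCA in 8.58%, 6.25%, 6.99% and 10.2%. These shares describe the letters of the windows only.

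Transcription factors of macrophages were split, with 18 of 34 called higher and 13 lower (median 0.48). Maf (chr8:115682942-115707794), a leucine zipper factor of resident macrophages, was at 294.6, 208.3 and 228.2 CPM in IM2 and had 3 counts over the AM libraries, a ratio of 3480 (95% interval of the counts 1190 to 16900). Runx3, a runt-domain factor, was at 26.6, 22.07 and 18.79 CPM in IM2 and had 5 counts in AM. On the other side Bhlhe40, a helix-loop-helix factor of AM, was at 23.93, 45.45 and 42.26 CPM against 431.1, 485 and 456.2. Nfe2 was lower at -4.63 ± 0.43 and Runx2 at -4.08 ± 0.25. Spi1 itself, which encodes the lineage factor of all macrophages, was lower at -0.50 ± 0.10, while Cebpa and Stat6 were not called.

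Nuclear receptors were also split (11 of 20 higher, 6 lower). Pparg (chr6:115361221-115490401), the lipid-sensing receptor that AM depend on, was at 11.15, 17.74 and 15.97 CPM in IM2 and 202.1, 199.2 and 177.3 in AM. Its libraries did not overlap and the log2 fold change was -3.69 ± 0.15 (edgeR adjusted p = 2.93e-12). Vdr, the vitamin D receptor, was lower at -4.12 ± 0.22 and Nr1h3, the oxysterol receptor LXR-alpha, at -2.11 ± 0.13, whereas Nr1h2 (LXR-beta) was not called (-0.03 ± 0.12). Esr1, the oestrogen receptor, had no AM count and was at least 108-fold higher in IM2. The GM-CSF receptor genes were lower, the alpha chain Csf2ra at -0.92 ± 0.10 and the beta chain Csf2rb at -1.75 ± 0.10. Csf2rb2, the beta chain specific to IL-3, was lower at -1.20 ± 0.10. Reads mapping to both Csf2rb2 and its close paralog Csf2rb were not counted, so both levels are uncertain.

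Of 21 antigen presentation genes 15 were called higher and 5 lower, with a median of 2.51. The list holds the 3 gated class II chains, and without them 12 of 18 were called higher and 5 lower, with a median of 1.34. Cd74, the invariant chain and most abundant IM2 gene, was at 22290, 20360 and 21140 CPM against 1437, 2106 and 2153. Ciita, the class II transactivator, was higher by 2.75, and Cd40 and Cd86, costimulatory molecules, by 7.18 ± 0.22 and 4.19 ± 0.17. The inhibitory ligand genes went the other way. Cd274 (PD-L1) was at 15.01, 10.86 and 12.35 CPM in IM2 against 148.9, 147.7 and 158.5 in AM, and Pdcd1lg2 (PD-L2) was lower at -3.66 ± 0.37. H2-Oa, a class II editing chain, was lower at -2.09 ± 0.36 while its partner H2-Ob was higher by 6.95 ± 0.42. Dendritic cell markers were measured beside these genes. Of 10 conventional markers tested 6 were called higher and 3 lower. The 12 listed summed to 486.99 to 548.49 CPM in IM2 and 1101.39 to 1140.66 in AM. All 4 plasmacytoid markers tested were called higher, and the 8 listed summed to 522.36 to 640.57 CPM against 26.03 to 31.07. Siglech, a plasmacytoid marker, averaged 293.8 CPM in IM2 with no AM count. The part of dendritic cells in these results was not tested.

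Chemokine ligands were higher in 18 of 24 cases and lower in 4 (median 4.17). Cxcl13 (chr5:95956928-95961067), the B cell attractant, was at 285.9, 191.8 and 202.7 CPM in IM2 with no AM count, at least 3230-fold higher. Ccl8 was at 308.4, 138.1 and 199.9 CPM, also with no AM count. Ccl7, a monocyte attractant, and Ccl24, an eosinophil attractant, averaged 208 and 147 CPM in IM2 and had 1 and 2 counts in AM. Cx3cl1 (fractalkine) was lower at 22.66, 17.19 and 19.96 CPM against 136.5, 167.7 and 161.4, opposite in direction to its receptor Cx3cr1. Ccl22 and Cxcl3 were lower too, and Ccl5 and Cxcl14 were not called.

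Chemokine receptors could be tested for 9 of 21 genes. Ccr2 was at 325.1, 572.4 and 540 CPM in IM2 and 11.48, 15.67 and 13.27 in AM, a log2 fold change of 5.15 ± 0.23 (edgeR adjusted p = 7.19e-10). Cxcr1 and Cxcr2, receptors of neutrophil chemokines, ran the other way: Cxcr1 had no IM2 count and was at 11.55, 8.586 and 12.83 CPM in AM, at least 162-fold higher there.

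Cytokine ligands gave 9 higher and 4 lower of 17 tested. Il10, the anti-inflammatory cytokine, was at 28.61, 18.5 and 18.24 CPM in IM2 with no count in AM, at least 309-fold higher. Of the interleukin-1 family, 3 of 4 ligands were lower. Il18 was at 23.93, 13.55 and 15.66 CPM against 247.6, 260.9 and 245.2, and Il1rn (the receptor antagonist) and Il1a were at log2 fold changes of -4.17 ± 0.12 and -3.73 ± 0.22. Il1b went against these, higher by 1.44. Tnf was not called, at 26.45, 18.5 and 15.48 CPM against 10.87, 21.53 and 20.11. Among receptors, 17 of 30 were higher and 8 lower. Il21r was at 100.8, 101.8 and 119.5 CPM with 3 AM counts in all, and Il1rl1, the IL-33 receptor, at 31.13, 49.85 and 38.45 CPM, also with 3. Il17ra was lower at -2.62 ± 0.13.

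Pattern recognition and uptake receptors showed no single direction. Of 23 Toll-like receptor and adaptor genes 13 were higher and 4 lower. Tlr1 was at 90.28, 79.69 and 99.44 CPM against 0.205, 0.7496 and 0.793. Its partner Tlr2 was lower, at 471.3, 515.1 and 530.5 CPM against 962, 1028 and 1078, and Tlr4, the endotoxin receptor, was not called (0.01 ± 0.11). Cd14, the endotoxin co-receptor, was higher by 4.11 ± 0.23. C-type lectins were split: Cd209a, Cd209d, Cd209f, Cd209g, Mgl2 and Clec10a were among the 12 called higher, and Clec4e, Clec4n, Clec4d and Clec7a among the 8 called lower. Clec4n (Dectin-2), a fungal receptor, was at 95.33, 84.37 and 90.53 CPM against 813.5, 1065 and 911. Scavenger and apoptotic cell receptors were 13 higher and 10 lower of 23, with Olr1, an oxidised lipoprotein receptor, lower at -7.30 ± 0.17. The Cd209, Clec4 and Ifitm genes are paralog families in which reads mapping to several genes were not counted, so their levels are uncertain.

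Fc receptor genes were higher for Fcgr2b (1.93 ± 0.14), Fcgr3 (1.48 ± 0.11) and Fcgrt (1.04 ± 0.12) and lower for Fcgr4 (-2.26 ± 0.11), while Fcer1g, the shared signalling chain, was not called. Of 15 integrin chains tested 8 were higher and 5 lower. Itga9 was at 125.3, 154.1 and 154.2 CPM with no AM count, at least 2090-fold higher. Itgal (the LFA-1 alpha chain) was lower, at 14.27, 18.29 and 17.26 CPM against 507.9, 472.7 and 470.4. Its beta chain Itgb2 was lower at -2.73 ± 0.11 as was its partner Itgax, while its partner Itgam was higher. Cells were sorted on the proteins of Itgam and Itgax, so the directions of these genes are no separate result.

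Growth factor and matrix genes were called higher in 19 of 28 cases and lower in 8, with a median of 4.29 (3.92 with genes at their bound). Mmp9 (chr2:164940780-164955850), gelatinase B, was at 1882, 1264 and 1653 CPM in IM2 and at 0 counts in all AM libraries, at least 23000-fold higher. Pdgfa, a growth factor for mesenchymal cells, was at 30.76, 32.8 and 34.33 CPM with 3 counts in AM. Igf1 was higher by 3.77. Spp1 (osteopontin) was lower, at 31.13, 28.95 and 20.33 CPM against 927.4, 1115 and 1053, and Mmp8, Tgm2 (a cross-linking enzyme), Tgfb2 and Fn1 (fibronectin) were lower as well. Markers of fibroblasts were measured beside these genes: the 12 summed to 442 to 461 CPM in IM2 and 15.9 to 19.3 in AM. In AM 8 of the 12 were at 0 and in IM2 none. Col3a1 had 473, 653 and 754 counts in the IM2 libraries. Their part in the matrix results was not tested.

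TGF-beta and BMP pathway genes were higher in 17 of 23 cases. Smad3, a signal transducer, was at 46.29, 51.84 and 45.7 CPM against 0.6151, 0.6814 and 0.1442, and Bmp2, a ligand, at 29.57, 26.75 and 40.41 against 0, 0.1363 and 0.1442. Of the 3 TGF-beta ligands, Tgfb3 was higher, while Tgfb1 (-0.74 ± 0.12) and Tgfb2 (-3.67 ± 0.35) were lower. Axon guidance genes were higher in 18 of 23 cases and lower in 2. Endothelial markers were measured beside them: of 11 tested 8 were called higher and 1 lower, and the 12 listed summed to 101 to 125 CPM in IM2 and 150 to 172 in AM, with Cdh5, Kdr, Tie1, Cldn5 and Emcn at 0 in AM. Smooth muscle and pericyte markers were called higher in 6 of 8 cases and lower in 1, and summed to 27.9 to 30.8 CPM against 12.5 to 13.1. Their part in these results was not tested. Plxna4, a semaphorin receptor, was at 70.14, 79.62 and 64.37 CPM with 2 counts in AM. Sema3e was lower, at 0.2972, 0.06876 and 0.1843 CPM against 32.4, 28.76 and 24.15.

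**Figure D3:**
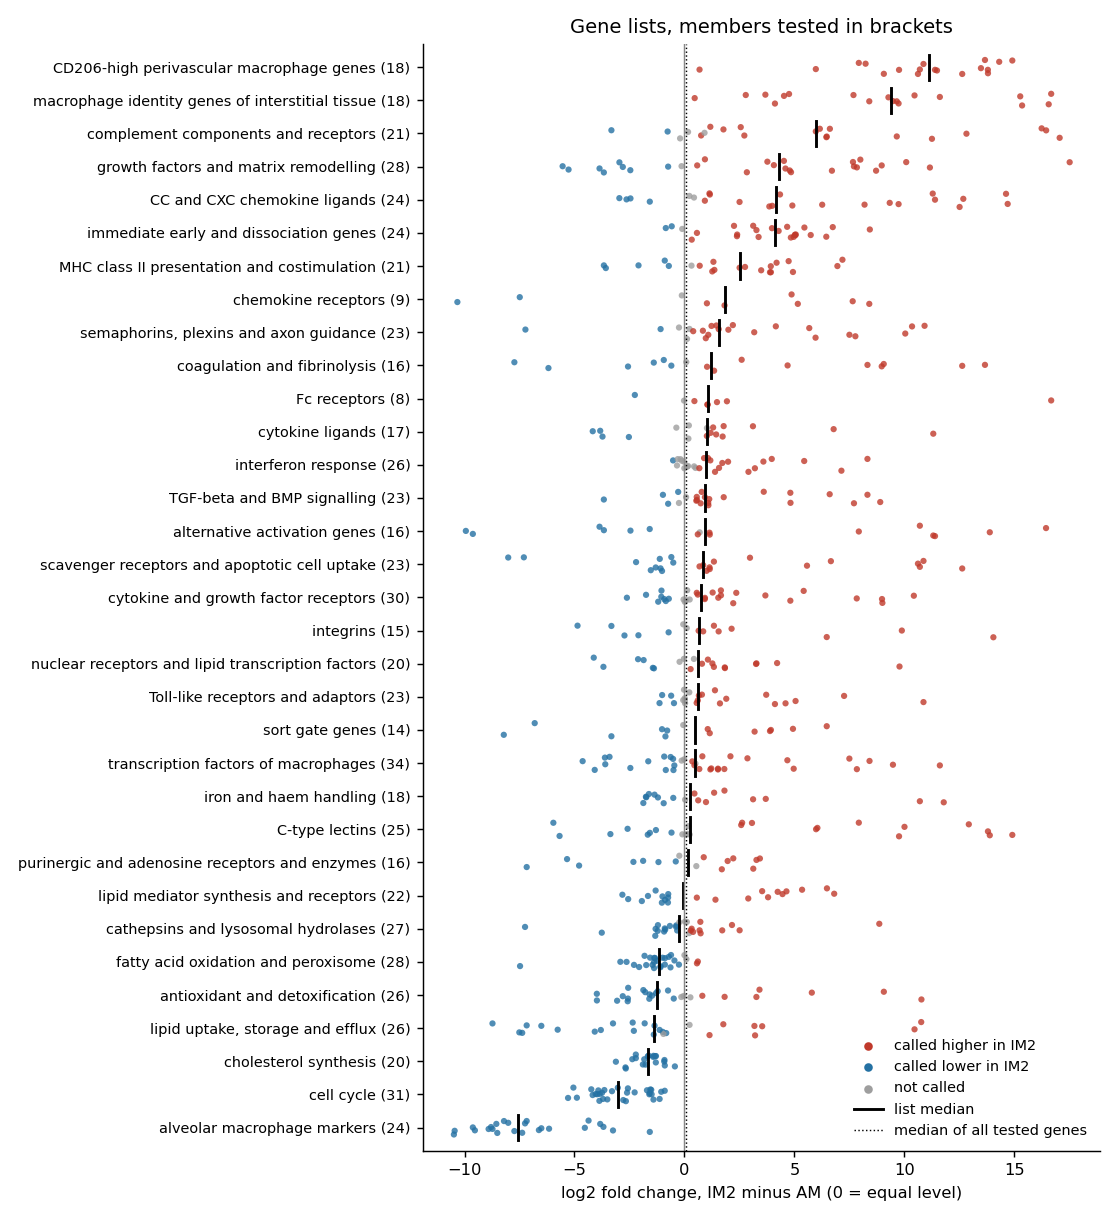
Log2 fold change (IM2 minus AM) of each tested member of 33 gene lists, ordered by list median from -7.56 (alveolar macrophage markers) at the bottom to 11.13 (CD206-high perivascular genes) at the top; red was called higher, blue lower, grey not called. Lists with a median below 0 are mainly those of lipid metabolism, antioxidants, cell cycle and AM markers.

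Genes of lipid metabolism were mostly called lower in IM2. Every one of the 20 cholesterol synthesis genes was called lower, 16 of them by at least 2-fold, with a median of -1.65. The share of all tested genes called lower was 30.7%. Hmgcs1 (chr13:119690462-119708086), the HMG-CoA synthase at the head of the pathway, was at 34.85, 45.45 and 51.53 CPM against 259.9, 328.2 and 259.8. Mvd, a mevalonate pathway enzyme, was the most different at 17.76, 11.69 and 15.48 CPM against 120.8, 135.8 and 133.7 (log2 fold change -3.12 ± 0.14, edgeR adjusted p = 9.11e-12). Ebp, a sterol isomerase, was the least, at -0.44. Srebf2, which encodes the regulator of this pathway, was not called (-0.22 ± 0.10, edgeR adjusted p = 0.059).

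**Figure D4:**
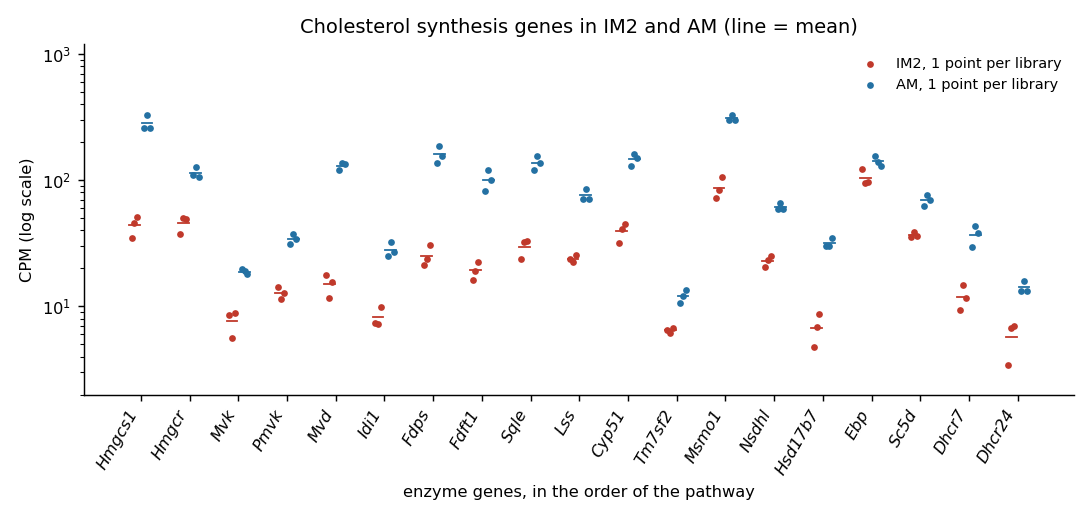
CPM (log scale) of 19 cholesterol synthesis enzyme genes in the order of the pathway, with 1 point per library and a line at the mean of 3 libraries; IM2 is red and AM blue. The IM2 points lie below the AM points at each step, closest at Ebp.

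Of 28 genes for fatty acid oxidation and peroxisomes 24 were called lower and 2 higher (median -1.17). Acaa1b, a peroxisomal thiolase, was at 1.04, 0.5501 and 0.6756 CPM against 172.2, 115.7 and 115. Acaa1b has the close paralog Acaa1a, itself lower at -1.38. Pex5, the import receptor for peroxisomal proteins, was among the 2 called higher, by 0.61 ± 0.11. For lipid uptake, storage and efflux the counts were 17 lower and 7 higher of 26. Cidec, a lipid droplet protein, was at 0.8173, 0.6188 and 0.4299 CPM against 294.7, 245 and 248.5. Apoe, Vldlr, Abca1 and Pltp were on the higher side, and Vldlr had no AM count. Abcg1, a cholesterol exporter, was lower at -4.08 whereas Abca1, another exporter, was higher by 3.21.

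Lysosomal genes were mixed, with 10 higher and 13 lower of 27. Ctsd (chr7:142371148-142388038), the aspartic protease cathepsin D, was at 1716, 1569 and 1831 CPM in IM2 and 22170, 24350 and 22810 in AM. Ctsk was lower at -7.25 ± 0.40, and Lgmn, the protease legumain, was higher by 2.51 ± 0.12. Antioxidant and detoxification genes were lower in 16 of 26 cases and higher in 7. Gsr (glutathione reductase) was at 29.57, 30.39 and 29.05 CPM against 474.7, 501.8 and 429.2, and Nqo1 was lower at -3.98 ± 0.25. Cbr2, a carbonyl reductase, went the other way at 610.4, 352.9 and 460.9 CPM against 0.7518, 1.158 and 0.7209, and Gpx1 was not called. Among iron and haem genes 9 were higher and 8 lower of 18. Hmox1 (haem oxygenase) was lower at -1.87 ± 0.14 although the haemoglobin receptor Cd163 was higher, and Slc40a1, the iron exporter, was not called. Slc11a1, the phagosomal metal transporter, was higher by 3.12 ± 0.14.

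All 31 cell cycle genes were called lower in IM2, 30 of them by at least 2-fold, with a median of -3.03. Rrm2, a ribonucleotide reductase subunit of S phase, was at 4.533, 5.226 and 4.975 CPM against 183.6, 222.5 and 173.5. Ccnb1 (cyclin B1) was at 0.4458, 0.3438 and 1.597 CPM against 24.13, 25.08 and 25.16, and Mki67 averaged 8.39 against 68.5. Mcm3, a replication helicase subunit, was the nearest to AM at -0.90.

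Immediate early genes were higher in IM2 in 21 of 24 cases and lower in 2 (median 4.13, or 3.84 at the bound). Egr1 was at 1313, 1251 and 1029 CPM against 1.64, 4.77 and 4.037, a log2 fold change of 8.43 ± 0.28 (edgeR adjusted p = 6.42e-11). Socs3, a feedback inhibitor of cytokine signalling, was at 852.9, 732.1 and 711.2 CPM against 15.45, 15.2 and 12.33. Fos averaged 2740 CPM against 84.8. The heat shock genes of the list lay near 0: Hspa1a was higher by 0.33, Hspa1b, its near-identical neighbour, was not called and Hsp90aa1 was lower at -0.58 ± 0.15. Egr2 was the other gene called lower, at -0.85. Such genes respond to tissue digestion and sorting, and the populations were sorted with different panels. Their part in the chemokine, cytokine and matrix results was not tested.

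Interferon response genes were called higher in 15 of 26 cases and lower in 1, and 10 were not called. Ifitm3, a membrane antiviral protein, was at 179.1, 90.62 and 115.2 CPM against 0.6151, 0.8177 and 1.298, and Oas2 was higher by 5.44 ± 0.27. Isg15 (-0.01 ± 0.28) and Rsad2 (0.16 ± 0.23) overlapped between the populations. Genes used as signs of alternative activation were likewise split, 9 higher and 6 lower of 16. Retnla (chr16:48842552-48844461), a resistin-like secreted protein, was at 1117, 545.9 and 617 CPM with no AM count, at least 10700-fold higher, with replicate A highest. Chil3 and Chil4, from the same textbook set, were at the other end. Chil4 lies near Chil3 on chromosome 3 and averaged 52.75 CPM in AM against 50010 for Chil3. Whether some of its reads came from Chil3 was not tested. Arg1 was not called, at 1.263, 1.375 and 0.9827 CPM against 0.2734, 1.158 and 0.793.

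Differences from AM were then sorted by whether IM1 and IM3 shared them, in 1 edgeR fit of all 12 libraries with 14095 genes. A gene counted as found in IM2 alone when 3 conditions held. It was called between IM2 and AM, it was not called in that direction between IM1 and AM or between IM3 and AM, and it was called in that direction between IM2 and each of IM1 and IM3. No gene met this on the higher side (0% of genes tested) and none on the lower side (0%). At an unadjusted p under 0.05 in place of the adjusted one, edgeR gave 6 higher and 11 lower, and DESeq2 on its adjusted p gave 0 higher and 1 lower. The 3 comparisons with AM share the AM libraries, so their calls are not independent. IM1 replicate A correlated with IM1 replicates B and C at 0.957 and 0.968 across genes. Pairs within IM2, AM and IM3 correlated at 0.983 to 0.992. A wide spread within IM1 makes a called difference from IM1 harder to reach, so the absence of a call here does not show equal levels.

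Of 8529 genes called between IM2 and AM in this fit, 6258 (73.4%) were also called in the same direction in IM1 and in IM3, 3620 higher and 2638 lower. A wider set, called against AM in IM2 and not called in either direction in IM1 or IM3, held 220 genes higher and 195 lower. Their median absolute log2 fold change was 0.61, against 1.41 over all IM2 calls, and 107 of the 415 reached 2-fold. A call in 1 population and none in another does not show a difference between them.

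The genes nearest to the condition were looked at after their values were seen, with levels scaled over 12 libraries. Ccl17, a T cell attractant, was at 12.57, 10.24 and 9.082 CPM in IM2 and 4.204, 4.842 and 5.524 in AM. It was at 3.495, 1.061 and 1.362 CPM in IM1, where it was called lower than in AM, and at 6.619, 6.82 and 3.654 in IM3. All IM2 libraries were above all others, but the difference from IM3 was not called (0.90 ± 0.34, edgeR adjusted p = 0.112). Avpi1, an arginine vasopressin-induced gene, was at 8.733, 6.523 and 6.18 CPM in IM2 and between 10.59 and 13.54 in the other 9 libraries. Its difference from IM1 missed the threshold (-0.77 ± 0.19, edgeR adjusted p = 0.0562).

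A further 11 genes, also found after their values were seen, were called in IM1 and IM3 against AM and lay further from AM in IM2 than in either, by a called difference. Higher were Cxcl12, C1qtnf1, Clec2i, Cd226, Tenm4, BC064078 and Gm11713. Cxcl12, the ligand of the receptor Cxcr4, was at 55.18, 39.21 and 58.21 CPM in IM2, 24.03, 21.42 and 25.3 in IM1 and 9.929, 7.774 and 14.62 in IM3, with no AM count. C1qtnf1, a secreted C1q and TNF related protein, was at 45.32, 47.76 and 56.32 CPM in IM2, above 28.66, 19.43 and 23.61 in IM1 and 4.435, 8.507 and 7.849 in IM3. No library of another population reached the IM2 range of either gene. Lower were Spp1, Capg, Plp2 and Tuba4a. Spp1 was at 31.54, 29.53 and 20.87 CPM in IM2, at 37.92, 66.33 and 50.6 in IM1 and at 50.5, 48.7 and 48.11 in IM3, against 950.6, 1148 and 1076 in AM. Capg, an actin-capping protein, was at 261.1, 306.2 and 316.9 CPM in IM2, at 480, 399.2 and 410.6 in IM1 and at 478, 532.9 and 460 in IM3, against 1153, 1153 and 1223 in AM. With IM1 replicate B left out, 35 genes lay further on the higher side and 12 on the lower, and without IM2 replicate A 1 and 4 did, so membership of this set moved with single libraries.

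**Figure D5:**
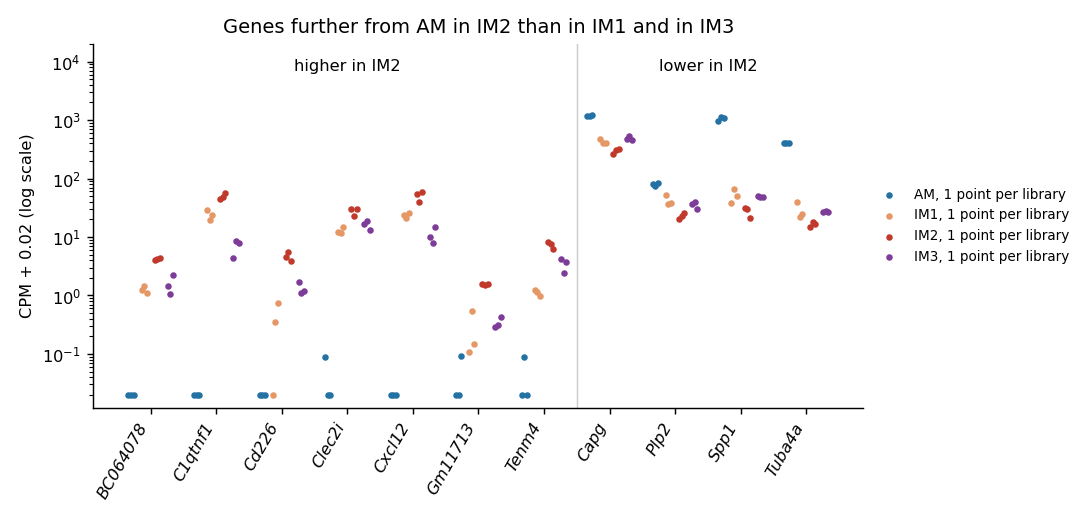
CPM plus 0.02 (log scale) of the 11 genes that lay further from AM in IM2 than in IM1 and IM3, with 1 point per library and 4 populations in the colours named in the legend. For the 7 genes on the left the IM2 points are highest, and for the 4 on the right they are lowest.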

How the data were processed

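RNA-seq was done on 12 libraries, of which 6 (IM2 and AM) form the comparison. The values are raw read counts per gene deposited by the authors: STAR 2.5.1b and the build mm10 are named in the submitters' processing notes, and reads were counted without strand by featureCounts v1.5.0-p1 on Ensembl gene models per the file headers. Reads mapping to several places or genes were not counted, so paralogs are uncertain and antisense partners cannot be told apart. Sequencing runs of a library were summed. Symbols were found for 42462 of 43346 gene IDs, and coordinates are GENCODE's for mm10.

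Counts were tested with edgeR 4.0.16 (filterByExpr with a minimum count of 10, TMM scaling, robust quasi-likelihood F test, Benjamini-Hochberg adjustment, threshold 0.05) in R 4.3.3, after a check on simulated data. Fold changes against a group at 0 use a floor of 3 counts over the group, and ratios over 1 to 3 counts carry exact binomial 95% intervals. Alternatives were other scalings, no filter, a 2-fold minimum, DESeq2 1.42.0, a replicate block, all 12 libraries in 1 fit, and each library left out.

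Members and lists were chosen with earlier results of these data known. Named genes are all gate genes, the 12 largest called differences in each direction at 50 CPM or more without overlap, up to 5 called members of each list in its more frequent direction and 3 in the other, members not called, and leading markers of other cell types. Others were named after their values were seen: Abca1, Abcg1, Acaa1a, Alox5, Alox5ap, Cd300e, Cd74, Ciita, Csf2ra, C4b, Cd209d, Clec10a, Clec4d, Clec7a, Col3a1, Csf1r, Cxcr4, Ebp, Fn1, Folr2, Fos, Hspa1a, Igf1, Il1b, Lta4h, Lyve1, Mcm3, Mki67, Pltp, Ptgs1, Spi1, Tgfbi, Thbd, Treml4, Xist, the markers of other cells and those so described in the IM1 and IM3 comparison. Some genes are not reported here by name.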

Additional observations from a re-analysis of the deposited data

How the results depend on the processing

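With a 2-fold minimum 4916 genes were called, 2991 higher and 1925 lower. Under other scalings, no filter, DESeq2, the replicate block, 12 libraries in 1 fit and each library left out, between 8283 and 10082 genes were called, and none of the 8746 calls was reversed. Among genes tested in both fits, from 134 (relative log expression scaling) to 848 (without AM replicate B) of these calls were lost. The 10082 calls came without the filter, from 22772 genes tested. The replicate block left 8538 calls, 4563 higher and 3975 lower. Same-letter libraries did not deviate together (correlations across genes 0.076, -0.061 and -0.103), so the letters were not taken as pairs. Without the filter the median of all genes moved from 0.06 to 0.272. No gene named by the rule lost its call or changed direction, while some not called became called, such as C3 without AM replicate A (-0.34, edgeR adjusted p = 0.0327). The count found in IM2 alone was 1 under upper-quartile scaling, 5 without the filter, 1 with DESeq2 and 1 with the replicate block. It was 0 to 7 with each library left out: 7 without IM1 replicate B, 1 without IM1 replicate A (Ccl17) and 1 without IM2 replicate A (Avpi1). Chemokine receptors called higher numbered 10 without the filter and 9 in the fit of 12 libraries, against 6 in the main fit. Only 9 of the 21 receptors passed the filter in the main fit, so these counts are over unlike sets of members. The part of the filter in them was not tested. Depth limits single libraries to levels above 0.19 to 0.233 CPM.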

Other observations

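Lipid mediator genes were divided evenly, with 11 of 22 called higher and 11 lower (edgeR, adjusted as in the report). Pla2g7, which degrades platelet-activating factor, was at 740.7, 685.6 and 760.2 CPM in IM2 and 14.15, 22.01 and 17.59 in AM. The cyclooxygenase gene Ptgs1 was higher by 2.90 ± 0.16 on the log2 scale. Ptgs2, its inducible relative, was at 4.904, 8.595 and 1.228 CPM in IM2 and had 2 counts in AM, a ratio of 103 (95% interval of the counts 28.1 to 855). The leukotriene pathway genes Alox5 (-0.75 ± 0.10) and Lta4h (-1.66) were lower, as was Alox5ap, at 186.6, 172.9 and 178.4 CPM in IM2 against 373.1, 376.3 and 326.7 in AM.

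Coagulation genes gave 9 higher and 6 lower of 16. F7, coagulation factor VII, was at 7.43, 4.813 and 3.869 CPM in IM2 against 1048, 1150 and 1198 in AM, and F10 was lower at -6.18. Thbd (thrombomodulin, an anticoagulant receptor) was higher by 2.60. Purinergic genes gave 7 higher and 7 lower of 16: P2ry12, an ADP receptor, was higher by 3.13 and P2ry2, a UTP and ATP receptor, lower at -4.79. Nt5e (CD73, which makes adenosine) was at 0.2972, 0.3438 and 0.6756 CPM in IM2 against 67.94, 65.35 and 65.46, while Ada, which removes adenosine, was higher by 3.27.

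Some genes of other cell types were uneven among libraries. Trac, the T cell receptor alpha constant gene, had 0, 15367 and 0 counts in IM2 replicates A, B and C, 48070 in IM1 replicate A and 8862 in IM3 replicate B, with none in AM. Trbc2, a T cell receptor beta constant gene, had 51 counts in IM2 replicate B, 104 in IM1 replicate A, 29 in IM3 replicate B and 0 or 1 in each other library. Cd3d had 0, 7 and 2 counts and Cd3e 0, 0 and 1 in IM2. Ighm had 9611, 10962 and 15380 counts in IM2 and 3, 9 and 8 in AM, while Pax5 was at 0 in all. Hbb-bs had 546, 22 and 34 counts in IM2 and 3550, 3809 and 2873 in AM. Sftpc had 448, 124 and 146 counts in IM2 and 8, 7 and 0 in AM. Xist was at 192.7, 161 and 100.4 CPM in IM2 and 59.87, 39.25 and 67.41 in AM.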
